A study of Mus musculus with 12 samples.

Results

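The genes described here are 38 genes of the unfolded protein response and of protein folding in the endoplasmic reticulum (ER), taken by symbol from a table of 15721 genes. They were grouped into 20 chaperones and foldases, 4 sensors and their transcription factors, 7 genes of ER-associated degradation (ERAD), 5 genes of the PERK and ATF4 branch, and 2 subunits of the translocon. All 38 were in the table and 37 were tested. The list was drawn up with results of the same libraries known, and which values led to the choice is not recorded. Every comparison below therefore counts as one that may have shaped the list, and the levels, fold changes and calls describe these libraries and are not independent evidence.

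When unfolded proteins pile up in the ER, the chaperone BiP (Hspa5) leaves 3 membrane sensors: IRE1 (Ern1), PERK (Eif2ak3) and ATF6. IRE1 splices the messenger RNA of Xbp1, and spliced XBP1 together with cleaved ATF6 raises transcription of chaperones, foldases and ERAD genes, many of them through a promoter sequence called the ER stress response element (ERSE). PERK slows translation and raises ATF4, which turns on amino acid and stress genes such as Asns, Trib3, Chac1 and Ddit3, the gene of CHOP. Macrophages secrete many proteins, and their ER carries these chaperones at rest.

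Messenger RNA was sequenced from peritoneal macrophages of C57BL/6 mice that had been sorted by FACS, with 3 libraries in each of 4 genotype groups. WT mice carried no labelled mutation. The SAMHD1 KO group lacked SAMHD1, an enzyme that breaks down deoxynucleotides, and both double knockouts carried that deletion too. SAMHD1 Sting dKO mice also lacked STING, which relays the cGAS signal raised by DNA. SAMHD1 Cardif dKO mice also lacked Cardif, known too as MAVS, through which RIG-I-like receptors signal that they have met viral-type RNA. No treatment is labelled, the gate used in the sort is not stated in the labels, and no group carries a Sting or Cardif deletion alone. The labelled age, with no unit, was 16 in all WT libraries, 19, 18 and 16 in SAMHD1 KO, 24, 16 and 18 in SAMHD1 Sting dKO, and 18, 18 and 16 in SAMHD1 Cardif dKO. All mice were female except that of SAMHD1 Cardif dKO replicate 1. The labels do not say how animals were assigned to libraries, so p-values measure the spread between these libraries.

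Depth was 18884021 to 32204657 reads per library. Samhd1 reads averaged 10761 ± 713 (SD, n = 3) in WT, 6519.5 ± 1167 in SAMHD1 KO, 3683 ± 763 in SAMHD1 Sting dKO and 3613 ± 678 in SAMHD1 Cardif dKO. Transcript was still read in the deleted groups. Mavs averaged 518 ± 8.05 in SAMHD1 Cardif dKO and 859 ± 47.9 to 911 ± 126 in the other groups. Tmem173, which encodes STING, averaged 551 ± 22.4 in SAMHD1 Sting dKO, 522 ± 36 in WT, 735 ± 36.6 in SAMHD1 KO and 614 ± 38.3 in SAMHD1 Cardif dKO. By limma it was higher in SAMHD1 KO than in WT (log2 0.49, adjusted p = 0.00873). It was lower in SAMHD1 Sting dKO than in SAMHD1 KO (-0.41, adjusted p = 0.0149). Its level in SAMHD1 Sting dKO was not below that in WT, so its reads do not check the Sting label. The summed level of 15 markers of large peritoneal macrophages, among them Gata6, Adgre1 and Timd4, was 2819993 to 3009841 normalized reads in WT, 2187194 to 2640968 in SAMHD1 KO, 2604072 to 2876278 in SAMHD1 Sting dKO and 2542487 to 2772906 in SAMHD1 Cardif dKO. In this sum every SAMHD1 KO and SAMHD1 Cardif dKO library lay below every WT library, while SAMHD1 Sting dKO overlapped WT. The lowest log2 change of the 15 in SAMHD1 KO against WT was that of Lyz2 (-0.51, limma unadjusted p = 0.0558). Gata6, Adgre1 and Timd4 were at 0.03, 0.07 and -0.14. None of the 15 was called by limma in any contrast. At unadjusted p under 0.05, 1 was lower in SAMHD1 Sting dKO against WT and 1 against SAMHD1 KO, beside 1360 and 1531 of 13231 tested genes. In bulk libraries, fewer cells of a type and less RNA per cell cannot be told apart.

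The ERSE is shown because it is a feature of these genes that their levels did not choose. Promoters of 300 bases (250 before and 50 after the start) came from RefSeq on GRCm38.p6, and 32 of the 38 genes matched. The ERSE, which is CCAAT and CCACG with 9 bases of any kind between them on either strand, stood in 10 of the 32 (31.2%) and in 37 of 27025 genes in all (0.137%). Of 17 chaperones and foldases with a promoter, 8 held it. The related ERSE-II, ATTGG and CCACG with 1 base of any kind between them, stood in 2 of the 32 (6.25%, Herpud1 and Dnajb11) and in 0.0444% of all genes. The UPR element TGACGTGG stood in 1 (Txndc5) against 0.714% of all genes, and the ATF4 and C/EBP composite TGATGNAAT in 0 of the 32 against 1.08%. The list was drawn from genes known for this response, so its share is no independent finding, and a match is a description of these letters and not a measured binding site. Capitals mark the element in the strand of the gene, 5′ to 3′, and the ERSE of Creld2, Derl3 and Calr reads in reverse, from CGTGG to ATTGG. The first 6 lines hold an ERSE of genes that were called lower in each comparison with WT (Hspa5, Syvn1), in some (Creld2, Derl3) and in none (Calr, Canx), and the last holds the ERSE-II of Herpud1, which was lower in each.
Hspa5 (chr2:34772005-34772063, + strand): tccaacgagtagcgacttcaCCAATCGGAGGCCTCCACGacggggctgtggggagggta
Creld2 (chr15:88819500-88819558, + strand): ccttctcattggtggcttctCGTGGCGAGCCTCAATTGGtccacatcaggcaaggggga
Syvn1 (chr19:6046512-6046570, + strand): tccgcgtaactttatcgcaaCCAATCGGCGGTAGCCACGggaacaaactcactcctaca
Derl3 (chr10:75893222-75893280, + strand): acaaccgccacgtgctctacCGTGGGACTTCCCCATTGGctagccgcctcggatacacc
Calr (chr8:84847055-84847113, - strand): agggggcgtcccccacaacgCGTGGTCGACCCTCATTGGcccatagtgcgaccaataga
Canx (chr11:50325780-50325838, - strand): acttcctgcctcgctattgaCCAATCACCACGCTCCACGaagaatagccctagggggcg
Herpud1 (chr8:94386357-94386407, + strand): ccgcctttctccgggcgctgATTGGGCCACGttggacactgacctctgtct
Counted from the start, the element of Hspa5 lay at -65 to -47, that of Syvn1 at -44 to -26 and that of Herpud1 at -52 to -42. Hsp90b1 held 2 copies, and Pdia6, Dnajc3 and Ero1lb held 1 each.

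In SAMHD1 KO 12 of 20 chaperones and foldases, 6 of 7 ERAD genes, the sensor gene Eif2ak3 and the transcription factor gene Xbp1 were lower than in WT by limma. The sensor gene Ern1 was higher, and limma called 0 of the 4 tested genes of the PERK and ATF4 branch. Of these 4, 1 was higher and 2 lower at unadjusted p under 0.05, beside 1350 and 1137 of all 13231 tested genes. Of the 37 tested genes 21 were lower and 1 higher (adjusted p under 0.05 over 13231 genes, limma), beside 1.62% and 2.71% of all tested genes. The median log2 change was -0.51, beside 0.00 over all tested genes. All 3 SAMHD1 KO libraries lay below all 3 WT libraries for 31 of the 37 genes and above them for 2, beside 12.9% and 13.8% of all tested genes. The levels of the 3 mutant groups against WT share the WT libraries, so the comparisons are set side by side and not counted as repeats of each other. In SAMHD1 Cardif dKO 8 genes were lower and 0 higher (0.71% and 0.348% of all tested genes), with a median of -0.38. In SAMHD1 Sting dKO 20 were lower and 1 higher (2.93% and 3.57%), with a median of -0.51. Groups did not overlap, with WT above, for 31 genes in SAMHD1 Sting dKO and 28 in SAMHD1 Cardif dKO, beside 13.9% and 11% of all tested genes, and with WT below for 1 gene in each, beside 14.6% and 9.85%.

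**Figure D1:**
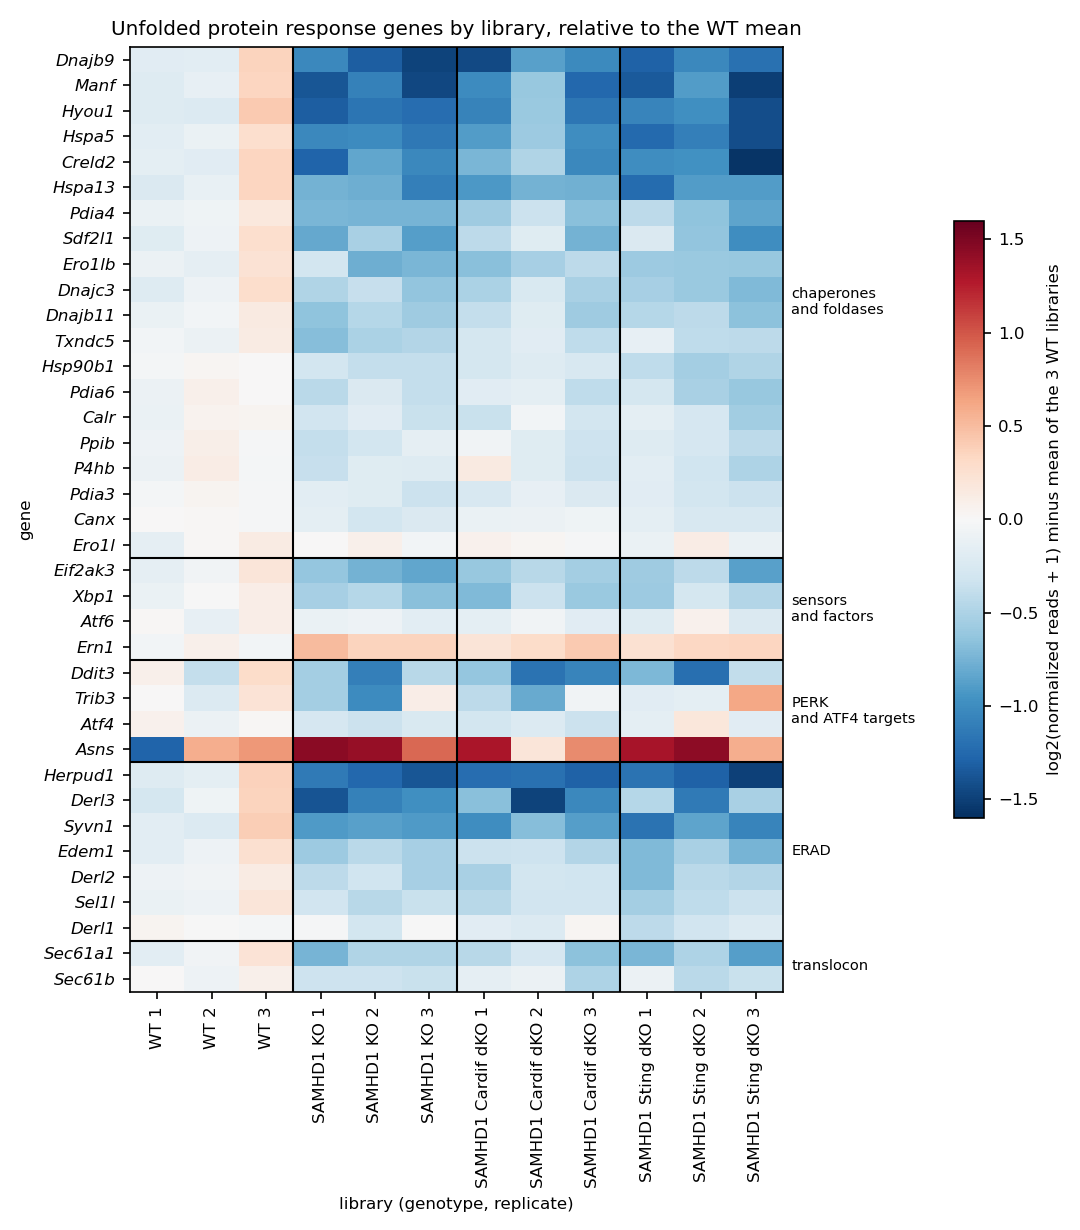
Level of each tested gene (rows, grouped by branch) in each library (columns), as log2(normalized reads + 1) minus the mean of the 3 WT libraries. Blue is below and red above that mean; chaperone and ERAD rows are blue in the 9 mutant libraries, except in rows such as Ero1l, P4hb and Derl1, while Ern1 is red and the PERK and ATF4 rows are mixed.

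The chaperones and foldases fold new proteins in the ER lumen, and 12 of the 20 fell in SAMHD1 KO (median log2 change -0.56), 12 in SAMHD1 Sting dKO (-0.55) and 5 in SAMHD1 Cardif dKO (-0.40), while 0 rose. Hspa5 encodes BiP, the Hsp70 of the ER lumen. Its levels were 37234, 38972 and 50592 in WT, 20406, 20848 and 18917 in SAMHD1 KO, 17673, 19679 and 15657 in SAMHD1 Sting dKO, and 22609, 27894 and 21109.8 in SAMHD1 Cardif dKO normalized reads. Every mutant library lay below every WT library, and SAMHD1 Cardif dKO replicate 2 was the highest mutant. Hspa5 fell, with a log2 change from WT of -1.06 (SE 0.136, adjusted p = 0.00279) in SAMHD1 KO, -1.25 (SE 0.136, adjusted p = 0.000897) in SAMHD1 Sting dKO and -0.82 (SE 0.136, adjusted p = 0.0177) in SAMHD1 Cardif dKO. Hyou1, a large Hsp70-like chaperone and exchange factor of BiP, stood at 6325, 6265 and 9793 in WT, 2915, 3235 and 3129.5 in SAMHD1 KO, 3511, 3691 and 2737 in SAMHD1 Sting dKO, and 3463, 4848 and 3276 in SAMHD1 Cardif dKO. WT replicate 3 was the highest library, and no mutant library reached the lowest WT value. The log2 change of Hyou1 was -1.24 (SE 0.186, adjusted p = 0.00617), -1.15 (SE 0.186, adjusted p = 0.00527) and -0.94 (SE 0.186, adjusted p = 0.0376) in the same order. Manf, a small secreted ER stress protein that binds BiP, had 3611, 3801.6 and 5323 in WT, 1619, 1972 and 1525 in SAMHD1 KO, 1643, 2245 and 1473 in SAMHD1 Sting dKO, and 2080.2, 2738 and 1756 in SAMHD1 Cardif dKO normalized reads. Here too the groups did not overlap. Its log2 change was -1.30 (SE 0.199, adjusted p = 0.00643) in SAMHD1 KO, the largest fall of any gene on the list in that group, -1.25 (SE 0.199, adjusted p = 0.00506) in SAMHD1 Sting dKO and -0.96 (SE 0.199, adjusted p = 0.046) in SAMHD1 Cardif dKO.

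The J-domain proteins and co-chaperones of BiP differed in size of change. Dnajb9 (ERdj4), a J-domain partner of BiP, had 2799.8, 2825 and 4084 in WT, 1561, 1279 and 1141 in SAMHD1 KO, 1293, 1560.3 and 1393 in SAMHD1 Sting dKO, and 1172, 1743 and 1571 in SAMHD1 Cardif dKO normalized reads. The highest mutant value, in SAMHD1 Cardif dKO replicate 2, was below the lowest WT value. Dnajb9 fell in all 3 mutant groups, with log2 changes of -1.27 (SE 0.176, adjusted p = 0.00438), -1.17 (SE 0.176, adjusted p = 0.00374) and -1.11 (SE 0.176, adjusted p = 0.0141) in the order used above. Hspa13, a microsomal Hsp70-like protein, stood at 934, 1003 and 1392 in WT, 644, 636 and 511 in SAMHD1 KO, 463, 588 and 588 in SAMHD1 Sting dKO, and 576, 647 and 643 in SAMHD1 Cardif dKO. WT and the mutants did not overlap. It fell as well, with log2 changes of -0.88 in SAMHD1 KO, -1.01 in SAMHD1 Sting dKO and -0.81 in SAMHD1 Cardif dKO (adjusted p = 0.00938, 0.00397 and 0.0309). Dnajb11 (ERdj3), which hands unfolded clients to BiP, had 3359, 3515 and 3979.9 in WT, 2303, 2623 and 2440.3 in SAMHD1 KO, 2628, 2689.8 and 2299 in SAMHD1 Sting dKO, and 2760.2, 3154 and 2437 in SAMHD1 Cardif dKO. Dnajc3 (p58IPK), a co-chaperone that also restrains PERK, had 6638, 7233 and 9271 in WT, 5463, 5905 and 4912 in SAMHD1 KO, 5272, 5060.1 and 4696 in SAMHD1 Sting dKO, and 5365, 6459 and 5313 in SAMHD1 Cardif dKO. All mutant libraries were below all WT libraries for both genes. Dnajb11 and Dnajc3 fell in SAMHD1 KO (-0.56 and -0.50) and in SAMHD1 Sting dKO (-0.51 and -0.61), and their values in SAMHD1 Cardif dKO were -0.38 and -0.42 (adjusted p = 0.116 and 0.137). Sdf2l1, which acts with J-domain proteins on BiP clients, was at 4325, 4694 and 5985 in WT, 2814, 3446 and 2691 in SAMHD1 KO, 4227, 3194 and 2494 in SAMHD1 Sting dKO, and 3695, 4321 and 2934 in SAMHD1 Cardif dKO. It was not called by limma: its log2 change was -0.74 (SE 0.195, adjusted p = 0.0542) in SAMHD1 KO, -0.62 in SAMHD1 Sting dKO and -0.46 in SAMHD1 Cardif dKO. Of 26 alternative settings, 7 called it in SAMHD1 KO, 3 in SAMHD1 Sting dKO and 0 in SAMHD1 Cardif dKO. WT replicate 1 lay only just above SAMHD1 Cardif dKO replicate 2.

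The foldases form and rearrange disulfide bonds or help prolines turn. Creld2, a resident protein induced by ER stress, had 1818, 1780.5 and 2564 in WT, 834, 1139.6 and 991 in SAMHD1 KO, 1019, 1034 and 682 in SAMHD1 Sting dKO, and 1219.8, 1452 and 991 in SAMHD1 Cardif dKO normalized reads. The WT and mutant libraries did not overlap, and SAMHD1 Sting dKO replicate 3 was the lowest of all. Creld2 fell in SAMHD1 KO (-1.05 (SE 0.199, adjusted p = 0.0146)) and SAMHD1 Sting dKO (-1.18 (SE 0.199, adjusted p = 0.0063)) and was not called in SAMHD1 Cardif dKO (-0.75 (SE 0.199, adjusted p = 0.109)). Pdia4 (ERp72), a disulfide isomerase, was at 6914, 7113 and 8409 in WT, 4503, 4461 and 4467 in SAMHD1 KO, 5586, 4763 and 4154 in SAMHD1 Sting dKO, and 5036, 5858 and 4699 in SAMHD1 Cardif dKO. The 3 SAMHD1 KO libraries lay close together, below every WT library. Pdia4 fell in SAMHD1 KO (log2 -0.73) and SAMHD1 Sting dKO (-0.63) and was not called in SAMHD1 Cardif dKO (-0.53 (SE 0.115, adjusted p = 0.052)). Pdia6, another disulfide isomerase and a partner of IRE1, had 14333, 16218 and 15362 in WT, 11342, 12977 and 11741 in SAMHD1 KO, 12615, 10627 and 10069 in SAMHD1 Sting dKO, and 13430.5, 13749.9 and 11493 in SAMHD1 Cardif dKO. It was called in SAMHD1 Sting dKO against WT (-0.47 (SE 0.102, adjusted p = 0.0204)), and its value in SAMHD1 KO was -0.35 (SE 0.102, adjusted p = 0.0786). DESeq2 called that value too (adjusted p = 0.0196), and SAMHD1 Sting dKO against SAMHD1 KO was -0.12 (SE 0.102, adjusted p = 0.54). In SAMHD1 Cardif dKO against WT Pdia6 was at -0.25 (limma adjusted p = 0.287). Txndc5 (ERp46) had 5029.7, 4824 and 5671 in WT, 3208, 3636 and 3738 in SAMHD1 KO, 4724, 3897 and 3862 in SAMHD1 Sting dKO, and 4234, 4539 and 3899.6 in SAMHD1 Cardif dKO. For Txndc5 the SAMHD1 KO libraries were the lowest and did not overlap any other group, and the fall was called in SAMHD1 KO (-0.55 (SE 0.1, adjusted p = 0.0113)). The value in SAMHD1 Sting dKO was -0.32 (SE 0.1, adjusted p = 0.081), and the test of SAMHD1 Sting dKO against SAMHD1 KO, 0.24 (SE 0.1, adjusted p = 0.191), was not called. In SAMHD1 Cardif dKO against WT Txndc5 was at -0.29 (adjusted p = 0.2).

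Hsp90b1 (GRP94), the Hsp90 of the ER, had 36614, 38376 and 37554 in WT, 30472, 28921 and 28823 in SAMHD1 KO, 28229.5, 25689.9 and 26864 in SAMHD1 Sting dKO, and 30834, 32411 and 31389.7 in SAMHD1 Cardif dKO normalized reads. All 9 mutant libraries were lower. The fall was small and was called in SAMHD1 KO (-0.35 (SE 0.071, adjusted p = 0.0189)) and SAMHD1 Sting dKO (-0.48 (SE 0.071, adjusted p = 0.00363)), with -0.25 (SE 0.071, adjusted p = 0.13) in SAMHD1 Cardif dKO. Ero1lb, one of the oxidases that recharge disulfide isomerases, had 845, 816 and 1059.8 in WT, 735, 523 and 540.3 in SAMHD1 KO, 601, 595 and 589 in SAMHD1 Sting dKO, and 564, 621 and 673 in SAMHD1 Cardif dKO. It fell in SAMHD1 KO and SAMHD1 Sting dKO (log2 -0.60 in each, adjusted p = 0.0294 and 0.0247). Its value in SAMHD1 Cardif dKO was -0.54 (adjusted p = 0.0867), with every library below WT. Its paralogue Ero1l, the other oxidase, was called nowhere by limma, with WT at 713 ± 67.6 (SD, n = 3) and SAMHD1 KO at 717 ± 29.6. The 95% interval of its log2 change in SAMHD1 KO was -0.19 to 0.21. The other lumenal and membrane folding genes, Calr, Canx, Pdia3, P4hb, Ppib and Ero1l, were called in no comparison by limma. Their log2 changes in SAMHD1 KO ran from -0.28 (Calr, the lectin chaperone calreticulin) to 0.01 (Ero1l). For all but Ero1l, every SAMHD1 KO and SAMHD1 Sting dKO library lay below every WT library, beside 12.9% and 13.9% of all tested genes. In SAMHD1 Cardif dKO this held for Canx and Pdia3. At unadjusted p under 0.05 (limma), Calr, Canx, Pdia3 and Ppib were lower in SAMHD1 KO, beside 1137 of all 13231 tested genes. Per kilobase of transcript, Calr (13862 normalized reads per kilobase), Ppib (13085) and Hspa5 (12031) were the highest of the 38 genes in WT. In SAMHD1 KO Hspa5 was at 5709 per kilobase, below Calr (11406), Ppib (10819.9), Pdia3 (8939.7), P4hb (7625) and Hsp90b1 (7293).

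**Figure D2:**
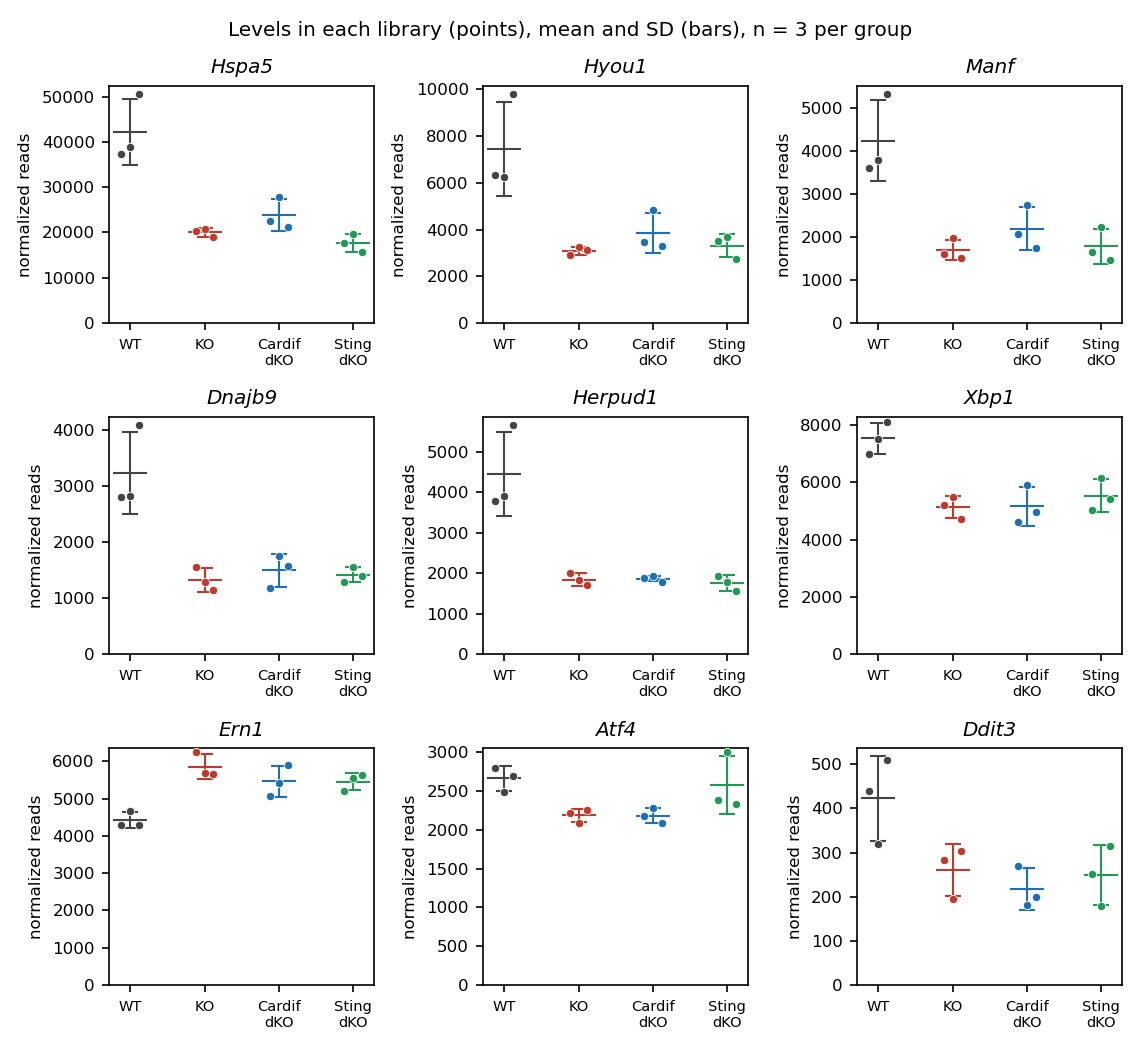
Normalized reads (vertical axes, starting at 0) of 9 genes in each library, with points for libraries and bars for the mean and SD of 3 libraries. For Hspa5, Hyou1, Manf, Dnajb9, Herpud1 and Xbp1 every mutant point lies below every WT point, for Ern1 every mutant point lies above, and the groups overlap for Atf4 in SAMHD1 Sting dKO.

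Of the 4 sensors and factors, Xbp1 and Eif2ak3 fell, Ern1 rose and Atf6 was not called in SAMHD1 KO. Xbp1, the transcription factor spliced by IRE1, had 6996, 7504 and 8101 in WT, 5204, 5495 and 4734 in SAMHD1 KO, 5026, 6164 and 5414 in SAMHD1 Sting dKO, and 4603, 5907 and 4971 in SAMHD1 Cardif dKO normalized reads. WT lay above all mutant libraries, and SAMHD1 Sting dKO replicate 2 came closest to it. Gene-level reads do not separate spliced from unspliced Xbp1. Xbp1 fell in SAMHD1 KO (-0.55 (SE 0.106, adjusted p = 0.0158)), SAMHD1 Sting dKO (-0.45 (SE 0.106, adjusted p = 0.0292)) and SAMHD1 Cardif dKO (-0.55 (SE 0.106, adjusted p = 0.0341)). Eif2ak3, which encodes PERK, had 1615, 1717 and 2037 in WT, 1160.4, 1058 and 1000.4 in SAMHD1 KO, 1201, 1329.7 and 979 in SAMHD1 Sting dKO, and 1174, 1307 and 1220.3 in SAMHD1 Cardif dKO. Its groups did not overlap, and it fell in SAMHD1 KO (-0.73 (SE 0.118, adjusted p = 0.00709)) and SAMHD1 Sting dKO (-0.62 (SE 0.118, adjusted p = 0.0117)) and was not called in SAMHD1 Cardif dKO (-0.53 (SE 0.118, adjusted p = 0.0553)). Ern1, which encodes IRE1 itself, went the other way, with 4297, 4667 and 4305 in WT, 6256, 5681 and 5648 in SAMHD1 KO, 5212, 5541 and 5624 in SAMHD1 Sting dKO, and 5083, 5406 and 5893 in SAMHD1 Cardif dKO. Every mutant library was above every WT library. It rose in SAMHD1 KO (0.41 (SE 0.0738, adjusted p = 0.0116)) and SAMHD1 Sting dKO (0.30 (SE 0.0738, adjusted p = 0.0314)), and its value in SAMHD1 Cardif dKO was 0.30 (SE 0.0738, adjusted p = 0.0792). Atf6, cleaved in the Golgi to give an active factor, had 2094, 1882 and 2228 in WT, 1917, 1947 and 1833 in SAMHD1 KO, 1782, 2155 and 1753 in SAMHD1 Sting dKO, and 1848, 1979 and 1814 in SAMHD1 Cardif dKO. Its groups overlapped, with log2 changes of -0.12 in SAMHD1 KO, -0.13 in SAMHD1 Sting dKO and -0.13 in SAMHD1 Cardif dKO.

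ERAD pulls misfolded proteins out of the ER for the proteasome, and 6 of its 7 genes fell in SAMHD1 KO, 5 in SAMHD1 Sting dKO and 2 in SAMHD1 Cardif dKO. Herpud1, a membrane scaffold of the ERAD complex, had 3794, 3922 and 5659 in WT, 1999, 1831 and 1698 in SAMHD1 KO, 1928, 1788 and 1553 in SAMHD1 Sting dKO, and 1877, 1920.4 and 1791 in SAMHD1 Cardif dKO normalized reads. The highest mutant value, in SAMHD1 KO replicate 1, lay far below the lowest WT value. Herpud1 fell in SAMHD1 KO (-1.25 (SE 0.136, adjusted p = 0.00259)), SAMHD1 Sting dKO (-1.32 (SE 0.136, adjusted p = 0.000679)) and SAMHD1 Cardif dKO (-1.23 (SE 0.136, adjusted p = 0.00199)). It was the only gene called under all 26 settings in all 3 comparisons with WT. Syvn1 (HRD1), the ubiquitin ligase of the complex, had 2555, 2471 and 3796.9 in WT, 1541, 1576 and 1533 in SAMHD1 KO, 1269, 1606 and 1391 in SAMHD1 Sting dKO, and 1444, 1794 and 1571 in SAMHD1 Cardif dKO. It fell in the same 3 comparisons, with -0.89 (SE 0.148, adjusted p = 0.00831), -1.03 (SE 0.148, adjusted p = 0.00336) and -0.85 (SE 0.148, adjusted p = 0.0205), with no overlap with WT. Sel1l, the partner that holds HRD1, had 4717, 4772 and 5771 in WT, 4094, 3713 and 3942 in SAMHD1 KO, 3479.8, 3812.5 and 3994 in SAMHD1 Sting dKO, and 3724, 4113 and 4102 in SAMHD1 Cardif dKO. Edem1, which marks glycoproteins for disposal, had 6788, 7252 and 9101 in WT, 5134, 5670.1 and 5291 in SAMHD1 KO, 4683, 5341 and 4560.4 in SAMHD1 Sting dKO, and 6045, 6094 and 5523 in SAMHD1 Cardif dKO. Both were below WT in every mutant library and fell in SAMHD1 KO (-0.37 and -0.51) and SAMHD1 Sting dKO (-0.43 and -0.66). Their values in SAMHD1 Cardif dKO were -0.35 and -0.38 (adjusted p = 0.0922 and 0.12). Derlins form part of the exit channel. Derl2 had 1482, 1509 and 1713 in WT, 1170.3, 1257 and 1085 in SAMHD1 KO, 962, 1158 and 1135 in SAMHD1 Sting dKO, and 1089.8, 1277 and 1253 in SAMHD1 Cardif dKO and fell in SAMHD1 KO (-0.42 (SE 0.0989, adjusted p = 0.0352)) and SAMHD1 Sting dKO (-0.53 (SE 0.0989, adjusted p = 0.0103)). In SAMHD1 Cardif dKO it was at -0.38 (adjusted p = 0.103), with every library below WT. Derl3, also a marker of plasma cells, was low, with 31.2, 36.3 and 48.9 in WT, 14, 17.5 and 18.9 in SAMHD1 KO, 27.5, 16.9 and 26.2 in SAMHD1 Sting dKO, and 23.6, 13 and 18.2 in SAMHD1 Cardif dKO, and fell in SAMHD1 KO only just past the threshold (-1.15 (SE 0.294, adjusted p = 0.0495)). That call was lost without any 1 of 9 single libraries. Derl3 was at -0.70 (adjusted p = 0.18) in SAMHD1 Sting dKO and -1.06 (adjusted p = 0.121) in SAMHD1 Cardif dKO, not called but with every library below WT. Derl1 was called nowhere by limma, with log2 changes of -0.11 in SAMHD1 KO, -0.32 in SAMHD1 Sting dKO and -0.12 in SAMHD1 Cardif dKO. Its SAMHD1 Sting dKO libraries all lay below WT, and the other groups overlapped WT. In the translocon, the channel through which new chains enter the ER, Sec61a1 had 5266, 5704 and 6888 in WT, 3531, 4228 and 4224 in SAMHD1 KO, 3548, 4183 and 3210.4 in SAMHD1 Sting dKO, and 4337, 4916 and 3768 in SAMHD1 Cardif dKO. It fell in SAMHD1 KO (-0.57 (SE 0.133, adjusted p = 0.0336)) and SAMHD1 Sting dKO (-0.71 (SE 0.133, adjusted p = 0.0109)). In SAMHD1 Cardif dKO it was at -0.45 (adjusted p = 0.139), with every library below WT. Sec61b was not called by limma (-0.34 in SAMHD1 KO, -0.29 in SAMHD1 Sting dKO and -0.24 in SAMHD1 Cardif dKO), though every mutant library lay below every WT library.

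None of the 4 tested genes of the PERK and ATF4 branch was called in any contrast by limma. Atf4, the transcription factor, had 2795, 2489.8 and 2698 in WT, 2215, 2092 and 2249.8 in SAMHD1 KO, 2383, 3007 and 2334 in SAMHD1 Sting dKO, and 2176, 2279 and 2093 in SAMHD1 Cardif dKO normalized reads. SAMHD1 Sting dKO replicate 2 was the highest library of all, and the other 2 of its group lay below WT. The log2 changes of Atf4 were -0.28 in SAMHD1 KO, -0.06 in SAMHD1 Sting dKO and -0.29 in SAMHD1 Cardif dKO, with adjusted p = 0.115, 0.776 and 0.184. Ddit3, which encodes CHOP, a factor of prolonged stress, had 439, 319 and 509.9 in WT, 284, 194 and 304 in SAMHD1 KO, 252, 179 and 315 in SAMHD1 Sting dKO, and 270.4, 182 and 199 in SAMHD1 Cardif dKO. Its highest mutant library, SAMHD1 Sting dKO replicate 3, was just below the lowest WT library. Ddit3 changed by -0.70 in SAMHD1 KO, -0.78 in SAMHD1 Sting dKO and -0.95 in SAMHD1 Cardif dKO on the log2 scale (95% interval in SAMHD1 KO -1.24 to -0.16), none past the threshold in limma. DESeq2 called Ddit3 lower than WT in SAMHD1 Sting dKO (DESeq2 adjusted p = 0.0268) and SAMHD1 Cardif dKO (DESeq2 adjusted p = 0.00741), so the absence of calls in this branch depends on the tool. Over the 26 settings its adjusted p ran from 0.0338 to 0.392 in SAMHD1 KO, 0.018 to 0.709 in SAMHD1 Sting dKO and 0.00741 to 0.335 in SAMHD1 Cardif dKO. Atf4 was called lower in SAMHD1 KO without SAMHD1 Sting dKO replicate 2, the library in which it was highest (adjusted p = 0.0425 in limma, and 0.0425 to 0.663 over the settings). Trib3, a pseudokinase induced by CHOP, had 11.4, 9.55 and 13.3 in WT, 7.42, 5.16 and 12.3 in SAMHD1 KO, 9.9, 10.1 and 17.9 in SAMHD1 Sting dKO, and 8.19, 6.02 and 10.9 in SAMHD1 Cardif dKO. Reads were so few that its 95% interval in SAMHD1 KO was -1.31 to 0.35. Asns, asparagine synthetase, had 1.89, 9.55 and 10.4 in WT, 18.1, 17.5 and 12.3 in SAMHD1 KO, 16.5, 18 and 9.54 in SAMHD1 Sting dKO, and 16.4, 7.02 and 10.9 in SAMHD1 Cardif dKO, with a log2 value of 1.25 (SE 0.515, adjusted p = 0.211) in SAMHD1 KO. Chac1, a glutathione-degrading enzyme, had 1.89, 3.82 and 0 in WT, 0, 4.13 and 0.943 in SAMHD1 KO, 1.1, 5.62 and 0 in SAMHD1 Sting dKO, and 2.05, 2.01 and 0 in SAMHD1 Cardif dKO. It was below the filter of 10 normalized reads in 3 libraries. At unadjusted p under 0.05, 2 of the 4 were lower and 1 higher in SAMHD1 KO, 1 lower and 0 higher in SAMHD1 Sting dKO, and 2 lower and 0 higher in SAMHD1 Cardif dKO. Over all 13231 tested genes the counts lower and higher were 1137 and 1350, 1360 and 1604, and 962 and 954 in the same order.

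**Figure D3:**
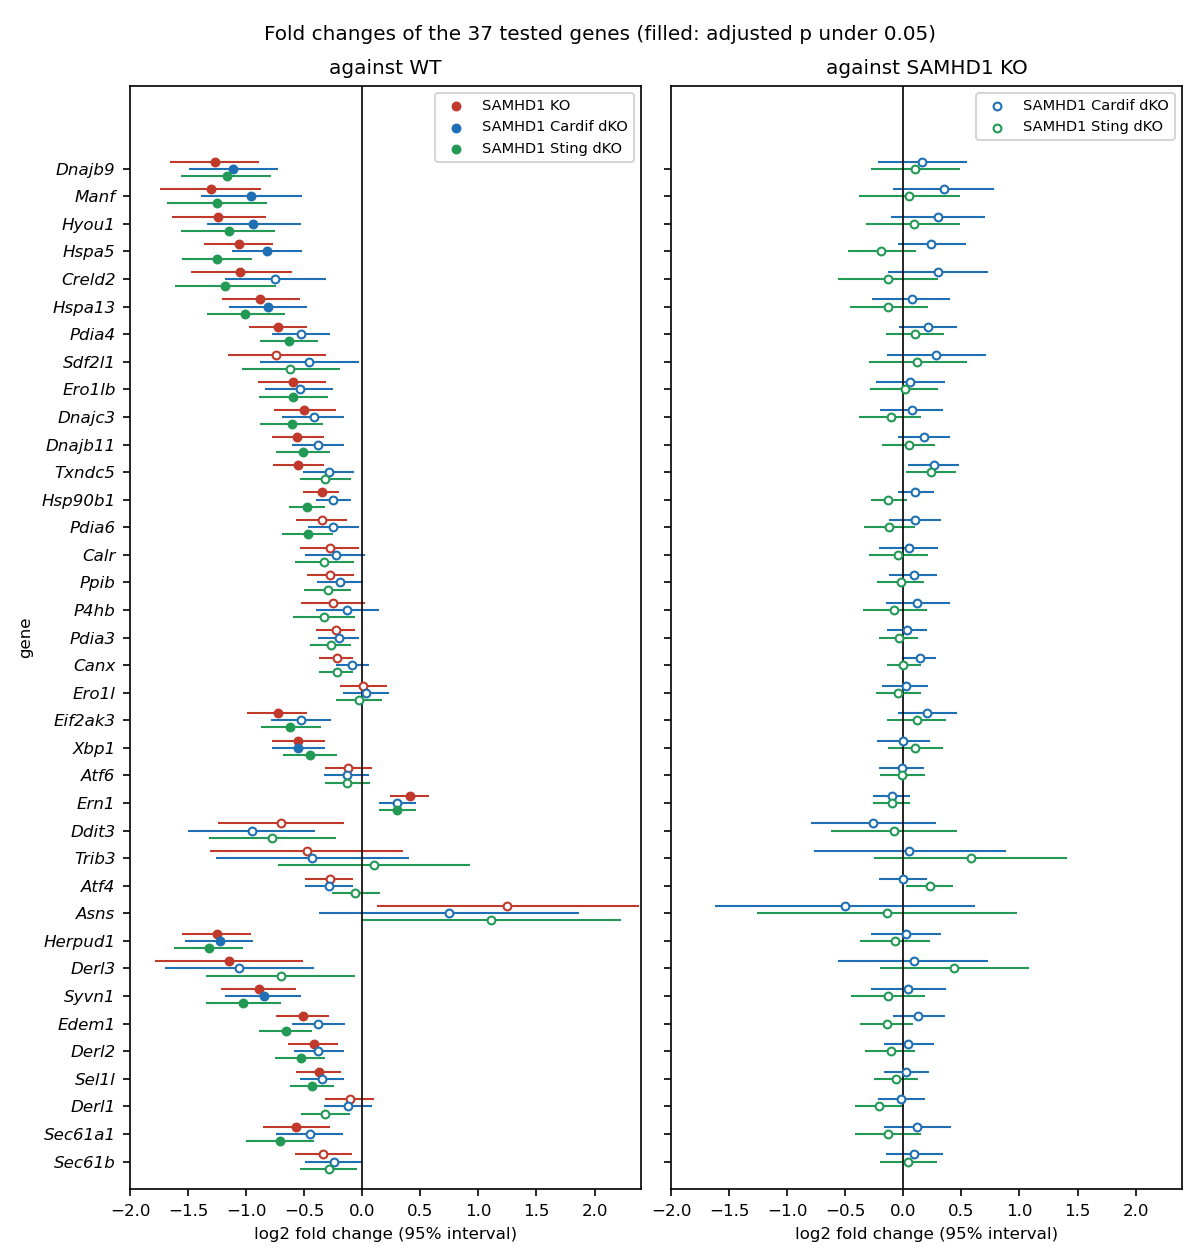
Log2 fold change of each tested gene (rows, as in the plot by library) with its 95% interval, against WT on the left and against SAMHD1 KO on the right; filled points have an adjusted p under 0.05. On the left 22, 21 and 8 points are filled for SAMHD1 KO, SAMHD1 Sting dKO and SAMHD1 Cardif dKO, and on the right 0.

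The SAMHD1-deficient groups were also compared with each other. No gene on the list was called by limma in SAMHD1 Cardif dKO against SAMHD1 KO (0.144% of all tested genes were called), in SAMHD1 Sting dKO against SAMHD1 KO (5.66%), or between the double knockouts (0.28%). At unadjusted p under 0.05, 1 was higher and 0 lower in SAMHD1 Cardif dKO than in SAMHD1 KO. In SAMHD1 Sting dKO 2 were higher and 1 lower than in SAMHD1 KO, and 1 higher and 3 lower than in SAMHD1 Cardif dKO. Over all 13231 tested genes the counts higher and lower were 448 and 740, 1420 and 1531, and 1022 and 1054 in the same order. edgeR called 0 in each, and DESeq2 called 0, 0 and 1 (Hsp90b1, lower in SAMHD1 Sting dKO than in SAMHD1 Cardif dKO, log2 -0.23, DESeq2 adjusted p = 0.00711). The 20 chaperones and foldases were all higher in SAMHD1 Cardif dKO than in SAMHD1 KO (log2 0.02 to 0.35, median 0.13). All 20 were lower in SAMHD1 Sting dKO than in SAMHD1 Cardif dKO (median -0.15). Over all 13231 tested genes, 6686 changes were positive in the first comparison and 6592 negative in the second. The 20 genes share the same libraries, so their signs are not independent of each other. Per library, their mean log2 level spanned 12.15 to 12.27 for SAMHD1 KO and 12.25 to 12.5 for SAMHD1 Cardif dKO. For SAMHD1 Sting dKO it spanned 12.06 to 12.27. SAMHD1 Cardif dKO therefore overlapped both other groups. For Hspa5 the intervals were -0.05 to 0.54 in SAMHD1 Cardif dKO against SAMHD1 KO and -0.48 to 0.11 in SAMHD1 Sting dKO against SAMHD1 KO, and for Herpud1 -0.28 to 0.32 and -0.37 to 0.23. These intervals do not show equal levels. In SAMHD1 Sting dKO against SAMHD1 Cardif dKO, Hspa5 was at -0.43 (interval -0.73 to -0.13, adjusted p = 0.169), with every SAMHD1 Sting dKO library below every SAMHD1 Cardif dKO library. Over the same libraries, 24 interferon response genes split the groups differently: 20 were higher in SAMHD1 KO than in WT (median 1.18). Of all tested genes 2.71% were called higher there. Against SAMHD1 KO 22 of the 24 were lower in SAMHD1 Sting dKO (-1.75) and 2 in SAMHD1 Cardif dKO (-1.04). Over all 13231 tested genes 383 and 19 were. Against WT 3 of the 24 were lower in SAMHD1 Sting dKO (-0.56), beside 2.93% of all tested genes. By limma 0 were called in SAMHD1 Cardif dKO (0.13). In the latter 4 were higher at unadjusted p under 0.05, beside 954 of all 13231 tested genes.

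Other genes of the same pathways were described next, from lists drawn up with results of these data known. Over all tested genes 1.62% were called lower and 2.71% higher in SAMHD1 KO against WT. The shares were 2.93% and 3.57% in SAMHD1 Sting dKO and 0.71% and 0.348% in SAMHD1 Cardif dKO, in the same order. Of 28 other genes of translocation and N-glycosylation, 14 fell in SAMHD1 KO (median -0.37), 17 in SAMHD1 Sting dKO (-0.37) and 1 in SAMHD1 Cardif dKO (-0.25), and 0 rose. Stt3a, a catalytic subunit of the oligosaccharyltransferase, fell in all 3 (log2 -0.50, -0.50 and -0.38 in that order). Ssr1, a subunit of the translocon-associated complex, fell in SAMHD1 KO (-0.52), Spcs2 of the signal peptidase fell there (-0.65) and in SAMHD1 Sting dKO (-0.64), and Ssr3 fell in SAMHD1 Sting dKO (-0.57). Of 31 other ER folding genes 4 fell in SAMHD1 KO (median -0.16), among them Txndc11 (-1.02), Fkbp14 (-0.85) and Erp44 (-0.29). In SAMHD1 Cardif dKO Txndc11 alone fell (-0.82). In SAMHD1 Sting dKO 4 fell, including Txndc11 (-0.93), Erp44 (-0.32) and Mlec (-0.53). Of 31 other ERAD genes 5 fell and 2 rose in SAMHD1 KO. Selk (-0.54), Vimp (-0.81) and H13 (-0.53), all ER membrane proteins, led the falls, and Rnf139 (0.33) and Svip (0.71), the latter an inhibitor of ERAD, were the 2 that rose. In SAMHD1 Cardif dKO 3 fell (Selk -0.45, Edem2 -0.38, Vimp -0.74), and in SAMHD1 Sting dKO 4 fell, led by Edem2 (-0.55), Vimp (-0.78) and Rnf185 (-0.49).

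Of 19 tested genes of other UPR signalling, Creb3l2, an ER-anchored factor related to ATF6, and Wfs1, an ER membrane protein, were the 2 that fell in each comparison with WT. The log2 changes in SAMHD1 KO, SAMHD1 Sting dKO and SAMHD1 Cardif dKO were -1.20, -1.46 and -1.04 for Creb3l2 and -0.69, -0.50 and -0.73 for Wfs1. Over all tested genes 1.62%, 2.93% and 0.71% were called lower in these comparisons. Of 32 tested other ATF4 and CHOP targets, 0 were called in SAMHD1 KO and 0 in SAMHD1 Cardif dKO by limma. At unadjusted p under 0.05, 0 were higher and 3 lower in SAMHD1 KO, and 3 higher and 4 lower in SAMHD1 Cardif dKO. Over all 13231 tested genes these counts were 1350 and 1137, and 954 and 962. In SAMHD1 Sting dKO 2 fell (Gpt2 -0.47, Cebpg -0.47). Against SAMHD1 KO, 2 of the 32 targets were called in SAMHD1 Sting dKO, Slc3a2 (0.48) and Pck2 (-0.67), and 1 of the 31 folding genes, Pofut2 (0.39), in a contrast that called 5.66% of all tested genes.

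**Figure D4:**
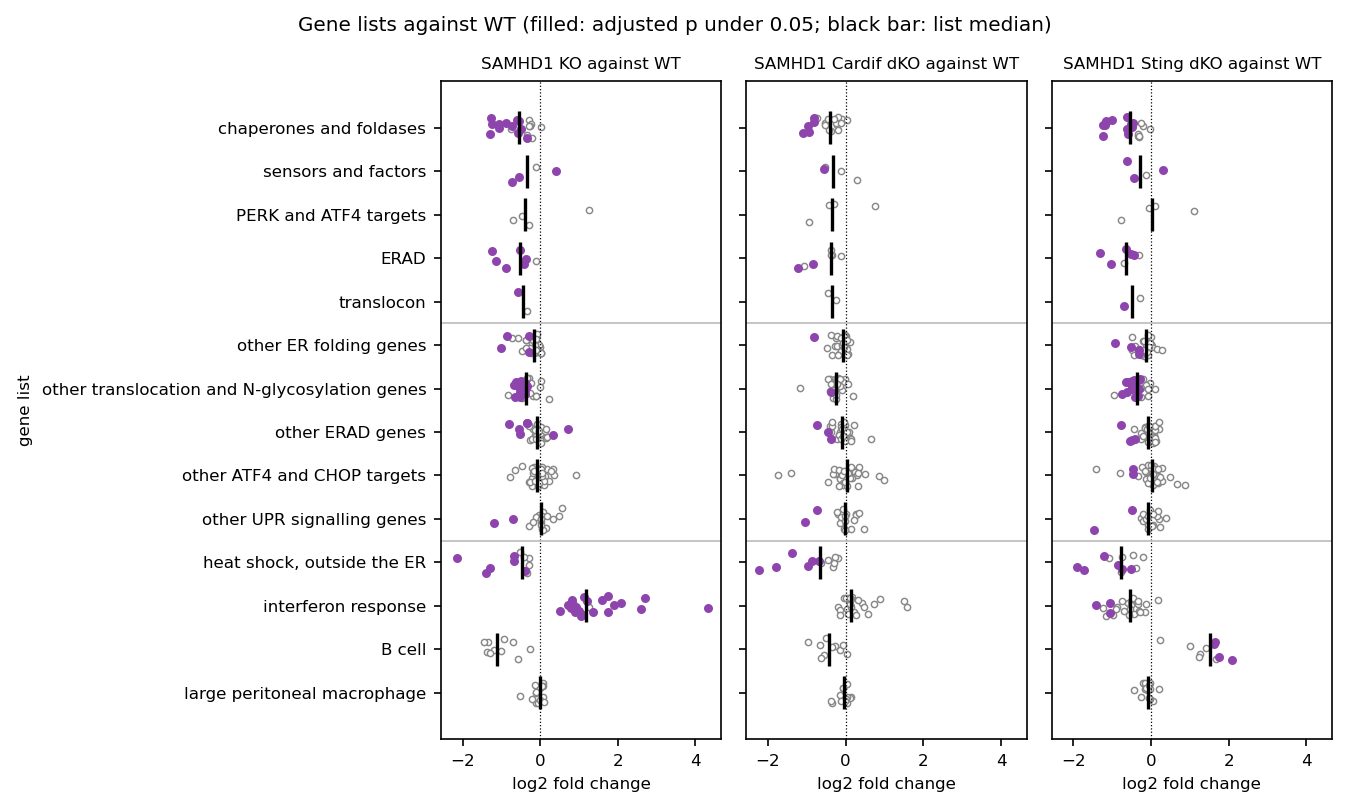
Log2 fold change against WT (horizontal axes) of each tested gene of the list's 5 branches, of 5 lists of related genes, and of 4 lists of other processes; filled points have an adjusted p under 0.05 and black bars are medians. The medians of the chaperones, ERAD genes and other translocation genes lie left of 0 in each panel, the interferon median is 1.18, 0.13 and -0.56 from left to right, and the B cell median is -1.11 in SAMHD1 KO and 1.52 in SAMHD1 Sting dKO.

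Several other measures were set beside the genotypes. Over all tested genes 1.62% were called lower and 2.71% higher in SAMHD1 KO against WT. The shares were 2.93% and 3.57% in SAMHD1 Sting dKO and 0.71% and 0.348% in SAMHD1 Cardif dKO, in the same order. In SAMHD1 Sting dKO against SAMHD1 KO 383 were called lower and 366 higher of 13231. Of 12 heat shock genes outside the ER, 10 of the cytosol and 2 of mitochondria (Hspd1 and Hspe1), 6 were called lower in each comparison with WT (median log2 change -0.47 in SAMHD1 KO, -0.77 in SAMHD1 Sting dKO and -0.67 in SAMHD1 Cardif dKO), with Hsph1 at -1.30, -1.92 and -1.37 and Hspa8 at -0.67, -1.22 and -0.97 in the same order. Hspa1a and Hspa1b are near-identical copies whose reads may be split between them, so their values are uncertain. Their summed level with the other 10 was 54761 to 62812 normalized reads in WT, 41007 to 45177 in SAMHD1 KO, 31504 to 40135 in SAMHD1 Sting dKO and 38164 to 50422 in SAMHD1 Cardif dKO. Its part in the result was not tested. The summed level of 10 B cell markers was 2049.7 to 2729.8 in WT, 1515 to 2013 in SAMHD1 KO, 3433 to 5640.2 in SAMHD1 Sting dKO and 1694 to 2339.8 in SAMHD1 Cardif dKO. With a B cell score in the model the 22 calls in SAMHD1 KO became 1 (median -0.43) and the 21 calls in SAMHD1 Sting dKO became 5 (median -0.59), while calls over all tested genes went from 572 to 90 and from 860 to 112. None of the B cell markers was at 0 in all 3 libraries of a group. Plasma cell markers, 10 of 11 in the table, summed to 4354 to 5386 in WT, 3915 to 8307 in SAMHD1 KO, 6471 to 12281 in SAMHD1 Sting dKO and 4815 to 5385 in SAMHD1 Cardif dKO. Every SAMHD1 Sting dKO library was above every WT library in this sum. Of the 9 tested, 1 was called lower in SAMHD1 KO (Derl3 itself), 1 higher in SAMHD1 Sting dKO against WT and 3 higher in SAMHD1 Sting dKO against SAMHD1 KO. Mast cell, eosinophil and basophil markers, 9 of 10 in the table, summed to 2742 to 2968 in WT, 1698 to 3038 in SAMHD1 KO, 2099 to 2953 in SAMHD1 Sting dKO and 1662 to 2506 in SAMHD1 Cardif dKO. All 7 tested had a negative log2 value in SAMHD1 KO against WT (median -2.91), of which Cma1 (-4.33), Mcpt4 (-3.39) and Tpsb2 (-3.51), mast cell proteases, were called. Against SAMHD1 KO 5 of the 7 were called higher in SAMHD1 Sting dKO, and Gata2 was at 0 in all SAMHD1 KO libraries and Fcer1a in all of SAMHD1 Cardif dKO. Markers of small peritoneal macrophages and dendritic cells, all 12 in the table, summed to 11253 to 14398 in WT, 15609.9 to 21679 in SAMHD1 KO, 13749 to 23093 in SAMHD1 Sting dKO and 13227 to 19809.6 in SAMHD1 Cardif dKO. Of the 11 tested, 3 were called higher in SAMHD1 KO (Zbtb46, Fcgr4 and H2-Eb1) and 1 lower (Cd209a). The part of these 3 marker lists in the result was not tested. The 20 cell cycle genes summed to 3509 to 16951 in WT, 6844 to 25156 in SAMHD1 KO, 3128 to 6505 in SAMHD1 Sting dKO and 11519 to 42790.5 in SAMHD1 Cardif dKO. None of the 20 was called by limma in any contrast. At unadjusted p under 0.05, 14 were lower in SAMHD1 Sting dKO against SAMHD1 KO and 19 against SAMHD1 Cardif dKO. Over all 13231 tested genes 1531 and 1054 were. With a cell cycle score in the model the calls among the members became 18 in SAMHD1 KO (median -0.45), 20 in SAMHD1 Sting dKO and 2 in SAMHD1 Cardif dKO. Over all tested genes the calls went from 572 to 474, from 860 to 847 and from 140 to 55. Outside WT, labelled age 16 was held only by SAMHD1 KO replicate 3, SAMHD1 Cardif dKO replicate 3 and SAMHD1 Sting dKO replicate 2. With age as a covariate the calls among the members became 20 in SAMHD1 KO, 17 in SAMHD1 Sting dKO and 5 in SAMHD1 Cardif dKO. Over all tested genes they became 437, 423 and 96. With 1 library of that age in each mutant group, the part of age in the result was not tested.

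WT replicate 3 was the highest of its group for 27 of the 37 tested genes, and 22 calls in SAMHD1 KO became 9 without it and 13 without SAMHD1 KO replicate 3. Over all tested genes the 572 calls in SAMHD1 KO became 185 and 277 in these 2 fits. In SAMHD1 Cardif dKO the 8 calls became 5, 4 and 2 without WT replicates 1, 2 and 3, 1 without SAMHD1 Cardif dKO replicate 1, the male library, and 2 without replicate 3. Over all tested genes the 140 calls in SAMHD1 Cardif dKO became 49, 46, 37, 42 and 85 in the same order. In SAMHD1 KO the 9 genes that kept their call with each single library left out were Dnajb9, Eif2ak3, Herpud1, Hspa13, Hspa5, Hyou1, Manf, Pdia4 and Syvn1. In SAMHD1 Sting dKO 14 of 21 genes kept their call in this way.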

How the data were processed

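Each deposited signal value is a gene's read number after scaling of its library by the authors, since low values step in whole reads. Genes came from Ensembl 61 on mm9, per the file headers, and bedtools 2.16.2 and DESeq 1.6.1 are named in the submitters' processing notes. No aligner is named in the labels or headers. Libraries were strand-specific and poly-dT-enriched, per the labels' protocols. The deposited gene lengths gave levels per kilobase. The deposited adjusted p-value column, the authors' own for SAMHD1 Sting dKO against SAMHD1 Cardif dKO, is not printed.

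The filter asked for 10 normalized reads or more in 3 or more of the 12 libraries, which left 13231 genes. A limma 3.58.1 model (R 4.3.3) with a mean per group and 8 residual degrees of freedom was fitted to log2(normalized reads + 1), which understates changes of low genes. P-values of each of the 6 contrasts were adjusted over all tested genes (Benjamini-Hochberg, threshold 0.05). An adjusted p or a call with no tool beside it is limma's. The median SE of a log2 change was 0.135. Alternatives were edgeR 4.0.16 and DESeq2 1.42.0 on reads recovered from the values (tolerance 0.0001), other filters, pseudocounts and covariates, a replicate block and each library left out. The script was tested on simulated data.

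The members and gene lists were chosen with earlier results of these data known. Values in every library are given for members called in any contrast and for chosen branch heads; in related lists up to 3 called genes each way are named by adjusted p. Of 38 members 30 are named in this way.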

Additional observations from a re-analysis of the deposited data

How the results depend on the processing

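The 26 alternative settings were followed gene by gene for the tested members whose values are given in every library. Among these no log2 change reversed sign while called, and 4259 gene results kept their side of the threshold, 42 gained and 205 lost it. Calr, Canx, Pdia3, P4hb, Ppib, Ero1l, Derl1 and Sec61b were not followed in this way. The 22 calls in SAMHD1 KO against WT became 26 with DESeq2 and 1 with a B cell score as a covariate, and leaving out each library in turn gave 9 to 22. The 8 calls in SAMHD1 Cardif dKO against WT became 21 with DESeq2, 1 in a fit of the 2 groups alone, 1 with sex, 5 with age, 2 with a cell cycle score and 2 with a B cell score as a covariate, and 1 to 10 with each library left out. Only SAMHD1 Cardif dKO replicate 1 was male, so the sex covariate is the same check as leaving out that library. The 21 calls in SAMHD1 Sting dKO against WT became 28 with DESeq2 and 5 with a B cell score as a covariate. They were 15 to 22 with each library left out. The 0 calls between the double knockouts became 1 with DESeq2, and the other contrasts without calls kept 0 throughout, 0 with each library left out included. The causes were not tested. Over all tested genes the calls in SAMHD1 KO against WT ranged from 90 to 1084. Those in SAMHD1 Sting dKO ranged from 112 to 1408 and those in SAMHD1 Cardif dKO from 37 to 485.

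The replicate numbers did not pair the libraries: same-numbered libraries had correlations of their deviations from -0.43 to 0.37 (median 0.03, 18 pairs), and 3 of 12 libraries were best matched by their own number. With a replicate block the calls against WT were 21 in SAMHD1 KO, 21 in SAMHD1 Sting dKO and 8 in SAMHD1 Cardif dKO, and 0 in each of the other contrasts; Ddit3 was among those called, lower than WT in each (adjusted p = 0.0338, 0.018 and 0.0214). Depth limits Trib3, Asns, Chac1 and Derl3, which had under 50 normalized reads in every library.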

Other observations

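Outside the list, the genes whose levels followed the mean of the 20 chaperones and foldases most closely over the 12 libraries were Stt3b (Pearson r = 0.982) and Stt3a (0.978), both catalytic subunits of the oligosaccharyltransferase, Tram1 (0.971), a translocon-associated protein, Hdlbp (0.964), an RNA-binding protein, and Bet1 (0.961), a SNARE of ER-to-Golgi traffic. After removing group means the values were 0.916, 0.860, 0.828, 0.856 and 0.739. The libraries are shared by all of these values, which are descriptions.

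The ERSE also stood in the promoters of 27 genes outside the list. By identical symbol, with no aliases searched, 10 of these were found among the deposited genes, so genes listed under other names may be missed. Of the 10, 6 were tested, with a median log2 change in SAMHD1 KO against WT of -0.10. Alg12, a mannosyltransferase of N-glycan assembly, was the 1 that was called, at -0.68 (adjusted p = 0.0435) in SAMHD1 KO and -0.75 (adjusted p = 0.0235) in SAMHD1 Sting dKO, while its value in SAMHD1 Cardif dKO was -0.62 (adjusted p = 0.117). The motif, counted without regard to level, was thus present in genes that fell and in genes that were not called.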
